A study of Mus musculus with 4 samples.

Results

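Microglia, the resident macrophages of brain tissue, were followed in single-nucleus RNA sequencing of the paraventricular hypothalamic nucleus (PVN) of mice, which controls pituitary hormones, stress responses and feeding. A nucleus was counted as a microglia nucleus when it held at least 6 unique molecular identifiers (UMIs, counted once per captured transcript molecule) from at least 3 of the 7 marker genes Cx3cr1, Csf1r, Siglech, Ly86, P2ry12, Inpp5d and Apbb1ip. It also had to hold under 1% of its UMIs in the neuronal transcripts Meg3, Snhg11 and Syt1, and under 0.5% in the oligodendrocyte transcripts St18, Prr5l, Mag and Mog. Kept nuclei had 500 or more genes and no more than 5% of UMIs from mitochondrial genes, and of these 30939 nuclei 579 met the rule. Because the members were chosen by these counts, the levels of genes in members against other nuclei are given as a description, with no test.

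The nuclei came from male C57Bl6 mice at zeitgeber time 20 (ZT20, 20 hours after lights on, night) and zeitgeber time 8 (ZT8, day), with 2 libraries at each time. No allele, drug or other agent is labelled for either time. Per the labels the mice were 10 weeks old (10 to 12 weeks in the series text), and each library pooled the micropunched PVN of 5 mice, whose nuclei were isolated on a sucrose gradient and captured with the 10x Genomics droplet assay for 3' ends (v3 chemistry). Whether replicate libraries stem from different pools of mice is not labelled, so a p-value here covers the spread between libraries, which may be technical. The comparison the series sets up is night against day.

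The ZT20 libraries held 8298 and 9369 kept nuclei and the ZT8 libraries 6379 and 6893, with 61933800 to 63558166 UMIs per ZT20 library and 57970649 to 69223344 per ZT8 library. Between 10 and 25 barcodes were shared between any 2 libraries, and none of these was shared by members of 2 libraries. UMIs of the members were summed per library, giving 503100 and 445072 at ZT20 and 489989 and 733142 at ZT8, and levels are given as counts per 1000000 (CPM) of these sums. A count of 0 in a library allows up to 3 UMIs, and intervals and such limits cover counting error only.

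Microglia arise from yolk-sac progenitors and depend on the growth factor receptor CSF1R and the transcription factor PU.1 (encoded by Spi1). They survey the tissue with motile processes guided by the purinergic receptor P2RY12, take up debris and synaptic material tagged by the complement component C1q, and degrade it in lysosomes with cathepsins and other hydrolases. In rodents, microglia have a working circadian clock, and expression of the cathepsin S gene Ctss in mouse cortical microglia has been described as following it.

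The marker genes were present in every library at far higher levels in the members than in the other kept nuclei. Cx3cr1, the receptor for neuron-derived fractalkine, had 1004 and 1117 CPM in ZT20 members and 880 and 648 CPM in ZT8 members, against means of 15.7 and 12.5 CPM in the other nuclei at ZT20 and ZT8. Csf1r had 869 and 982 CPM at ZT20 and 682 and 576 CPM at ZT8. For both receptors, and for Siglech and Apbb1ip below, the 2 ZT20 libraries lay above the 2 ZT8 libraries. Of all genes tested in members, 37.8% did not overlap between the times in either direction. The markers of the rule are given without a test. P2ry12 had 737 and 863 CPM at ZT20 and 865 and 678 CPM at ZT8, and the times overlapped. The sialic acid-binding lectin Siglech had 749 and 950 CPM at ZT20 and 722 and 608 CPM at ZT8. Ly86, a partner of the Toll-like receptor homologue CD180, overlapped between the times, with 650 and 782 CPM at ZT20 and 729 and 627 CPM at ZT8. The phosphatase gene Inpp5d (SHIP1) had 1103 and 1191 CPM at ZT20 and 1161 and 983 CPM at ZT8, and the integrin-activating adaptor gene Apbb1ip had 922 and 1004 CPM at ZT20 and 878 and 858 CPM at ZT8. All 7 markers were present together in 294 of the 579 nuclei.

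**Figure D1:**
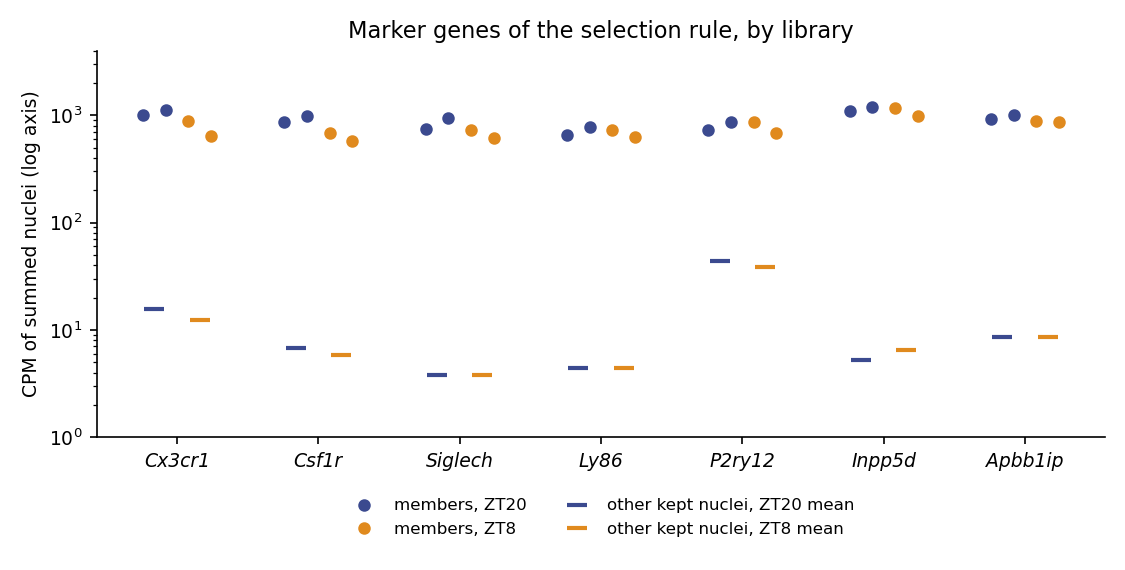
CPM (log axis) of the 7 marker genes in the summed members of each library (points; ZT20 left of ZT8) and the mean of the other kept nuclei at each time (dashes). Every member sum lies between 576 and 1191 CPM, and every mean of the other nuclei lies at or below 43.5 CPM.

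Other leukocyte and microglia genes were high in the members as well. The 20 genes with the highest ratio of CPM in members to CPM in the other nuclei (1 CPM added to both, at least 10 UMIs in every library) were Inpp5d (162), Siglech (158), Ikzf1 (151), Arhgap45 (140), Runx1 (137), Dock8 (131), Fyb (129), Ly86 (129), Ptprc (129), Csf3r (128), Myo1f (116), Blnk (112), Itgam (111), Hk2 (107), Csf1r (107), Slco2b1 (106), Fgd2 (105), Adap2 (98.6), Cd84 (96.5) and Apbb1ip (96.4), and 5 of them are markers of the rule. They include Ptprc, which encodes the pan-leukocyte antigen CD45, Itgam, the CD11b integrin chain, and the blood-lineage transcription factors Ikzf1 and Runx1. Sall1, a transcription factor that sets microglia apart from other macrophages, had 215 and 342 CPM at ZT20 and 214 and 195 CPM at ZT8, a ratio of 36.1 to the other nuclei. Trem2, a lipid-sensing receptor of phagocytes, had a ratio of 58.1. The 15 neuronal genes summed to 6599 and 4255 CPM in ZT20 members and 6276 and 7993 CPM in ZT8 members, against 37467 and 37287 CPM in the other nuclei at ZT20 and 42750.5 and 42881 CPM at ZT8. The 12 oligodendrocyte genes summed to 2745 and 2278 CPM in ZT20 members and 2955 and 3441 CPM in ZT8 members, above the 1516 and 1473 CPM in the other nuclei at ZT20 and the 2198 and 2198 CPM at ZT8. The neuronal genes include Meg3, Snhg11 and Syt1, and the oligodendrocyte genes include St18, Prr5l, Mag and Mog. The rule limits these transcripts in members, so both sums in members follow in part from the choice. The 12 astrocyte genes were present in members (2075 and 1979 CPM at ZT20, 1900 and 3261 CPM at ZT8) and in the other nuclei (1910 and 1853 CPM at ZT20, 2058 and 1998 CPM at ZT8). Of 17 lymphocyte and granulocyte genes, 1 (Bank1, a B cell adaptor gene that microglia also express) was counted highly enough to be tested.

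3 genes described further below are the protease gene Ctss, the complement gene C1qc and the lysosomal protease gene Ctsd. None of them passed the test between the times with all members. Their promoters are shown because the first pair hold the PU.1 element and the last holds the element of lysosomal gene promoters. The windows run from 250 bases before the start site to 50 after it on the gene's strand (RefSeq, GRCm38.p6): chr3:95526536-95526835 on the plus strand for Ctss, chr4:136892865-136893164 on the minus strand for C1qc, and chr7:142387778-142388077 on the minus strand for Ctsd. Both strands were searched for GAGGAAGT, a PU.1 element, and for CACGTG, the E-box, which lies within the longer lysosomal (CLEAR) element TCACGTGA. Capitals mark ACTTCCTC, the reverse complement of GAGGAAGT, in Ctss and C1qc, and CACGTG in Ctsd.
Ctss: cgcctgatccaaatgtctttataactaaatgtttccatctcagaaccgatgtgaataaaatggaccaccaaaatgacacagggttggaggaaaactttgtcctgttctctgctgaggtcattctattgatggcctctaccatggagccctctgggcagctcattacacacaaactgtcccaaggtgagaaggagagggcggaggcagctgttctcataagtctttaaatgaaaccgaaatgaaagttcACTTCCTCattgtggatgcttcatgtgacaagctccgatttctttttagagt
C1qc: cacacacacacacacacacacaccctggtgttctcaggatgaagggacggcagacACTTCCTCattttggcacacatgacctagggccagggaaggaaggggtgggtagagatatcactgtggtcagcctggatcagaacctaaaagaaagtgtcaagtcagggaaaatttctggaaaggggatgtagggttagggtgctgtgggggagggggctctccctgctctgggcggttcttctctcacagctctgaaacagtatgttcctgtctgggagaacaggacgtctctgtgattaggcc
Ctsd: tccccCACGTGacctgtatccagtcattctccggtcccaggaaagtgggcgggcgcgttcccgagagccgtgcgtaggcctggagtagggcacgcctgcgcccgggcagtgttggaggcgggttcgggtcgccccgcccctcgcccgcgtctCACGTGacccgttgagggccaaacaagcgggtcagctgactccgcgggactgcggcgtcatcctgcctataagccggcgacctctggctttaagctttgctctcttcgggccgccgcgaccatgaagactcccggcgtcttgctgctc
Of all 32851 mouse promoter windows of this length, 3.2% held GAGGAAGT, 7.15% held CACGTG and 0.974% held TCACGTGA. Among the 22 complement and lysosome genes of the list below that had a window, 3 held GAGGAAGT (C1qc, Ctss and Gusb), 4 held CACGTG (Ctsd, Ctsl, Lamp1 and Lgmn) and 1 held TCACGTGA (Ctsd). A match is a description of the letters in the window only.

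The members differed among themselves in depth more than in marker content. Their marker UMIs had a median of 20 and ran from 6 to 65, and 536 members held at least 10. The 14 members just inside the limit (6 to 7 marker UMIs) had a median of 1730.5 UMIs in all, and the 14 nuclei just outside it (4 to 5 marker UMIs, meeting the other limits) a median of 1875. The marker part of the rule alone was met by 212 and 217 nuclei at ZT20 and 217 and 248 at ZT8, and those that failed the neuronal or oligodendrocyte limit count among the other nuclei. All but 26 members held at most 3 times the median UMIs of the members of their library. These 26 high-UMI members (8748 to 69007 UMIs) numbered 6 and 2 in the ZT20 libraries and 6 and 12 in the ZT8 libraries, and supplied 24.1 and 6.53% of the members' UMIs at ZT20 and 21.2 and 35.6% at ZT8. Of the 26, 16 also held at least 6 UMIs from at least 3 of 7 astrocyte markers, which 36 of the 579 members did, and 11 held between 0.5 and 1% of their UMIs in the 3 neuronal transcripts, which 13 of all members did. Of the 57 members with the highest doublet scores, 6 were high-UMI members. Counts of called genes below are therefore given with all members and without the high-UMI members (553 nuclei), an alternative chosen after the data had been seen.

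Border macrophages, which line vessels and meninges and share many genes with microglia, were also present. At least 5 UMIs from at least 3 of 9 border macrophage genes were held by 1 and 1 members at ZT20 and by 3 and 6 members at ZT8, 11 nuclei or 1.9% of the members. Mrc1, the mannose receptor of these cells, had 15 and 17 UMIs at ZT20 and 40 and 78 UMIs at ZT8, and the 11 nuclei held 10 and 17 of these at ZT20 and 38 and 74 at ZT8. F13a1, a transglutaminase gene of the same cells, had 7 and 12 UMIs at ZT20 and 27 and 63 UMIs at ZT8, and the 11 nuclei held 7 and 12 of these at ZT20 and 24 and 62 at ZT8. Both genes were higher in the 2 ZT8 libraries, which held 9 of the 11 nuclei. Mrc1 and F13a1 are among the 9 genes that chose these nuclei, so a high part of their UMIs there follows from the choice.

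Microglia nuclei were a lower share of the kept nuclei in both ZT20 libraries than in either ZT8 library. They numbered 135 and 145 at ZT20, or 1.63% (95% Clopper-Pearson interval 1.37 to 1.92%) and 1.55% (1.31 to 1.82%), and 144 and 155 at ZT8, or 2.26% (1.91 to 2.65%) and 2.25% (1.91 to 2.63%). The means differed by -0.666 percentage points (1.587 ± 0.056% at ZT20 and 2.253 ± 0.00619% at ZT8, SD, n = 2 each; exact two-sided permutation test, p = 0.333, the smallest value that 2 against 2 libraries allow). The other nuclei were shallower at ZT20, with medians of 3832 and 2504 UMIs, against 5068 and 5879.5 UMIs at ZT8. Among kept nuclei with at least 1000 genes, the share was 2.49 and 2.69% at ZT20 and 2.92 and 2.92% at ZT8, a difference of -0.327 percentage points. A share cannot tell fewer microglia nuclei from more nuclei of other types, and the part of library depth was not tested further.

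Depth per microglia nucleus overlapped between the times. The median was 2771 and 2679 UMIs at ZT20 and 2634.5 and 3051 UMIs at ZT8, with medians of 1850 and 1807 genes at ZT20 and 1767 and 1995 genes at ZT8. The difference of the mean medians was -117.8 UMIs (exact two-sided permutation test, p = 1.0, n = 2 each).

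**Figure D2:**
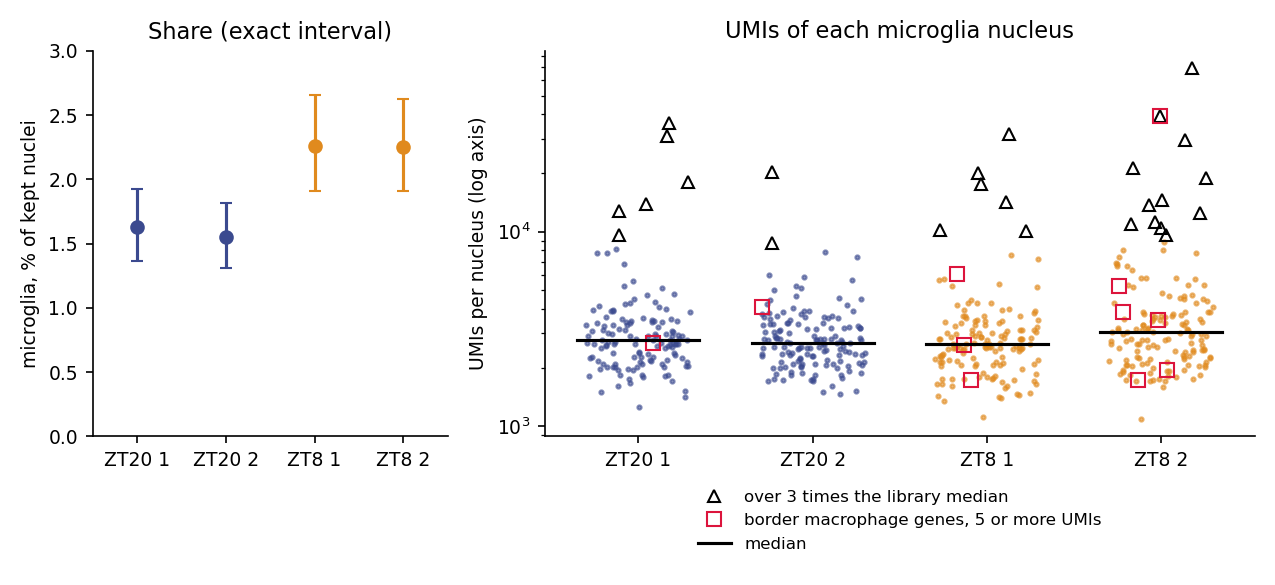
Left, microglia nuclei as a percentage of kept nuclei in each library, with 95% Clopper-Pearson intervals; right, UMIs of each microglia nucleus (log axis), with the library median as a line, high-UMI members as triangles and members with 5 or more UMIs of border macrophage genes as squares. The ZT20 shares (1.63 and 1.55%) lie below the ZT8 shares (2.26 and 2.25%), and 12 of the 26 triangles are in the ZT8 2 library.

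With all members, few genes passed the test between the times. Of 9229 genes tested by edgeR's quasi-likelihood test on the library sums (called at a Benjamini-Hochberg adjusted p under 0.05), 17 were called (0.184%), 6 higher at ZT20 (0.065%) and 11 lower (0.119%). The median log2 change over all genes tested was 0.00, and at an unadjusted p under 0.05 319 genes were higher and 386 lower. All 17 had ZT20 and ZT8 libraries that did not overlap in CPM, as did 3486 of the 9229 genes tested (37.8%). DESeq2 called 9 genes (0.0975%). Of the 17 genes, 16 were also called in the same direction in the other kept nuclei, where 10295 of 21223 genes were called (48.5%), 5246 higher (24.7%) and 5049 lower (23.8%).

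5 of the 6 genes higher at ZT20 encode secreted peptides of hypothalamic neurons. Oxt, the oxytocin gene of PVN magnocellular neurons, had 163 and 158 UMIs in ZT20 members and 18 and 20 UMIs in ZT8 members, a log2 change of 3.42 ± 0.23 (SE; adjusted p = 3.85e-06, edgeR). Its UMIs were spread thinly, with at most 5 in any member, and were present in 66.7 and 63.5% of members at ZT20 and 9.72 and 11.0% at ZT8. Astrocyte-marker nuclei, a class not known to express oxytocin, held an Oxt UMI in 66.8 and 57.5% of nuclei at ZT20 and 7.27 and 14.3% at ZT8, at medians of 4100 and 4042 UMIs per nucleus at ZT20 and 3924 and 4330 at ZT8. The share of members with an Oxt UMI was close to that of these nuclei at both times. The members were shallower, with medians of 2771 and 2679 UMIs at ZT20 and 2634.5 and 3051 UMIs at ZT8. Close shares are thus not close levels per UMI, and no expression in microglia is read from them. The part of free RNA in the difference between the times was not tested. The other kept nuclei averaged 210 CPM of Oxt at ZT20 and 15.9 CPM at ZT8.

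The same pattern of sparse counts held for the other peptides. Avp (vasopressin) had 21 and 26 UMIs at ZT20 and 2 and 2 UMIs at ZT8 (log2 change 3.83 ± 0.55, adjusted p = 0.00938, edgeR), Sst (somatostatin) 35 and 46 UMIs at ZT20 and 11 and 10 UMIs at ZT8 (2.29 ± 0.37, adjusted p = 0.0195, edgeR), and Cartpt (the CART peptide) 32 and 24 UMIs at ZT20 and 5 and 11 UMIs at ZT8 (2.16 ± 0.39, adjusted p = 0.0413, edgeR). Pmch (melanin-concentrating hormone) had 19 and 26 UMIs at ZT20 and 0 and 0 UMIs at ZT8, at least 9.42-fold higher at ZT20 when each ZT8 library is set to 3 UMIs (adjusted p = 0.00511, edgeR). Astrocyte-marker nuclei averaged 40.6 CPM of Avp at ZT20 and 3.05 CPM at ZT8, and 41.7 CPM of Pmch at ZT20 and 0.186 CPM at ZT8. Summed over the 15 neuropeptide genes, the members held 707.6 and 766.2 CPM at ZT20 and 128.6 and 120.0 CPM at ZT8, and the other kept nuclei 554.2 and 559.6 CPM at ZT20 and 95.0 and 107.1 CPM at ZT8. The sixth gene, Atp5md, a subunit of the mitochondrial ATP synthase, had 131 and 147 UMIs at ZT20 and 61 and 110 UMIs at ZT8 (log2 change 1.09 ± 0.20, adjusted p = 0.0413, edgeR), and it was also higher at ZT20 in the other nuclei (140 CPM at ZT20 and 80.3 CPM at ZT8).

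Of the 11 genes lower at ZT20, 7 had at most 4 UMIs in either ZT20 library. Myh11, the smooth muscle myosin heavy chain, had 0 and 0 UMIs at ZT20 and 20 and 22 UMIs at ZT8, of which 13 of 20 and 17 of 22 lay in a single nucleus of each ZT8 library (at least 5.58-fold lower at ZT20, adjusted p = 0.0195, edgeR). Dcn, the fibroblast proteoglycan decorin, had 0 and 3 UMIs at ZT20 and 21 and 34 UMIs at ZT8, with 20 of 21 in 1 nucleus of the ZT8 1 library and 16 of 34 in 1 nucleus of the ZT8 2 library (log2 change -3.73 ± 0.67, adjusted p = 0.0413, edgeR). The matrix genes Fn1 (fibronectin; 4 and 2 UMIs at ZT20, 35 and 38 at ZT8), Mgp (matrix Gla protein; 0 and 2 at ZT20, 32 and 52 at ZT8) and Eln (elastin; 1 and 1 at ZT20, 19 and 22 at ZT8) had log2 changes of -3.22 ± 0.48, -4.88 ± 0.62 and -3.87 ± 0.70. For Fn1, 30 of the 35 UMIs in the ZT8 1 library lay in 1 nucleus. Ahnak, a large scaffold protein gene, had 2 and 1 UMIs at ZT20 and 28 and 57 UMIs at ZT8 (log2 change -4.34 ± 0.53, adjusted p = 0.00438, edgeR). Slc22a8, an organic anion transporter of brain endothelium and choroid plexus, had 0 and 0 UMIs at ZT20 and 11 and 29 UMIs at ZT8, at least 4.88-fold lower at ZT20. High-UMI members held 17 of 28 and 48 of 57 of the Ahnak UMIs at ZT8 and 10 of 11 and 23 of 29 of the Slc22a8 UMIs.

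Markers of endothelial and mural cells moved with these genes. Summed over 12 such genes, the members held 25.8 and 33.7 CPM at ZT20 and 340.8 and 1843 CPM at ZT8, and without the high-UMI members 26.2 and 36.1 CPM at ZT20 and 142.4 and 478.4 CPM at ZT8. In the other kept nuclei the sums were 78.2 and 88.3 CPM at ZT20 and 168.7 and 146.2 CPM at ZT8. All 12 genes had at least 1 UMI in the members. 8 of the 12 were tested, and 1 (Myh11) was called lower. The part of these cells in the result was not tested.

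The remaining 4 genes lower at ZT20 had lower levels in members than in the other nuclei. Auts2, a regulator of neuronal transcription, had 101 and 86 UMIs at ZT20 and 235 and 483 UMIs at ZT8 (log2 change -1.54 ± 0.20, adjusted p = 0.00454, edgeR). High-UMI members held 43 and 14 of these at ZT20 and 134 and 367 at ZT8. Ntng1, an axon guidance ligand, had 95 and 67 UMIs at ZT20 and 165 and 309 UMIs at ZT8 (-1.16 ± 0.20, adjusted p = 0.0282, edgeR), with 184 of the 309 in a single nucleus. Chrm3, a muscarinic acetylcholine receptor gene, had 6 and 3 UMIs at ZT20 and 29 and 81 UMIs at ZT8 (-3.17 ± 0.47), and Zfp804b 13 and 17 UMIs at ZT20 and 48 and 114 UMIs at ZT8 (-2.02 ± 0.32). High-UMI members held 19 of 29 and 68 of 81 of the ZT8 UMIs of Chrm3, and 33 of 48 and 92 of 114 of those of Zfp804b. Once these members were left out, Auts2 had a log2 change of -0.62 ± 0.18 (adjusted p = 0.0394, edgeR; called in 0 of 4 fits with a library left out), and Ntng1 (-0.46 ± 0.18), Chrm3 (-1.56 ± 0.73) and Zfp804b (-0.39 ± 0.39) did not pass the test.

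**Figure D3:**
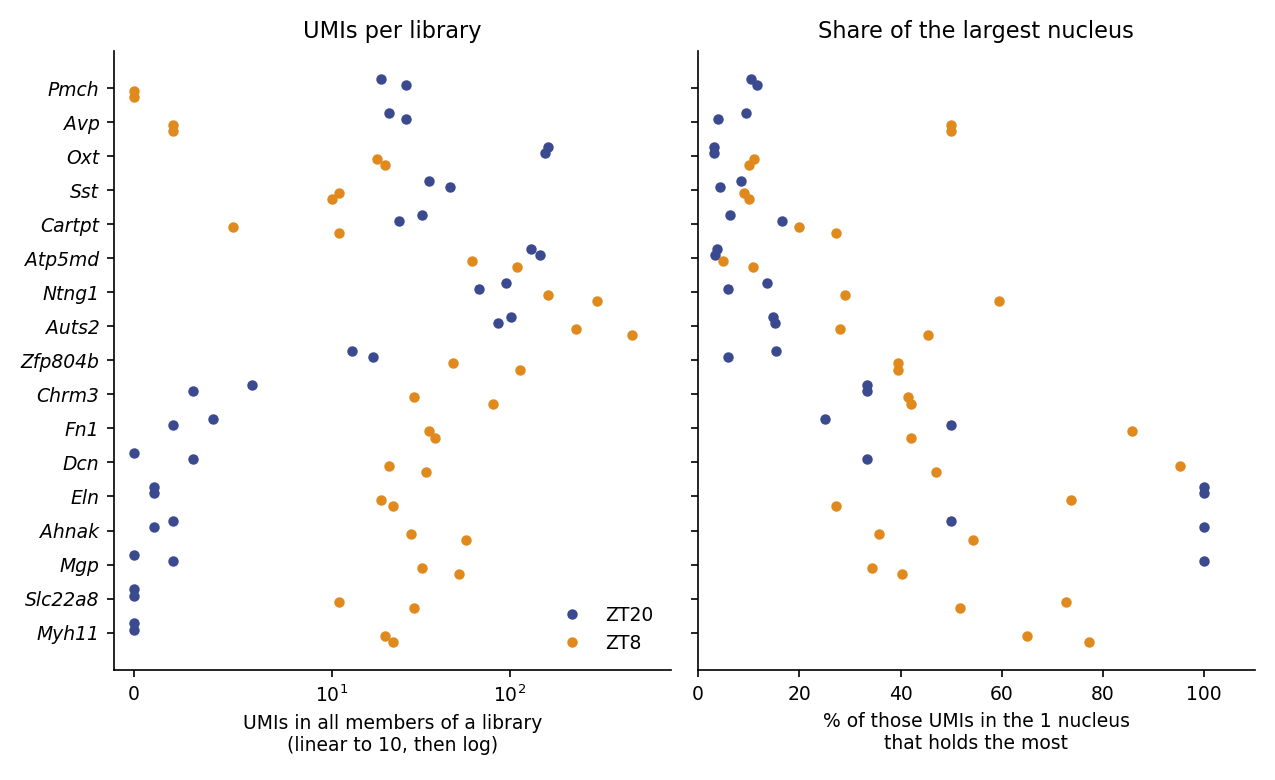
The 17 genes called with all members: left, UMIs per library (linear to 10, then log; ZT20 points above ZT8 points within a gene), and right, the percentage of those UMIs held by the nucleus with the most. The neuropeptide genes at the top are spread over many nuclei at ZT20, and Dcn has 20 of its 21 UMIs of the ZT8 1 library in a single nucleus.

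Without the high-UMI members, 108 of 8122 genes were called (1.33%), 63 higher at ZT20 (0.776%) and 45 lower (0.554%). They include 9 of the 17 genes above (Oxt, Avp, Sst, Cartpt, Pmch, Atp5md, Myh11, Mgp and Auts2), in the same direction, of 12 that were tested. Dcn, Fn1, Eln, Ahnak and Slc22a8 were too low to be tested. Of the 108, 91 were called in the same direction in the other kept nuclei and 4 in the opposite one, where 48.5% of all genes were called in either direction. DESeq2 on the same sums called 2 genes, Oxt and Pmch. Leaving out single libraries moved the count to between 31 (without the second ZT20 library) and 112, with 41 without the first ZT20 library and 44 without the second ZT8 library, so the calls in members named below are given with the number of the 4 such fits in which they were kept. Removing the astrocyte-marker and border macrophage-like members as well (523 nuclei left) gave 56 calls of 7742 genes (0.723%), 33 higher and 23 lower, of which 53 were among the 108.

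Among genes at least 5 times higher in members than in the other nuclei, 691 were tested, and 14 were called higher at ZT20 and 3 lower. Of all genes tested, 0.776% were called higher and 0.554% lower. The median log2 change of the 691 genes was 0.06, against 0.00 over all genes tested. With all members, 715 such genes were tested, and 0 were called higher and 2 lower (Dcn and Ahnak). At an unadjusted p under 0.05 in edgeR, 94 were higher and 15 lower, against 319 and 386 of all 9229 genes tested. Of the 715 changes 525 were positive, with a median log2 change of 0.20. The medians of microglia gene lists with all members below are to be read beside this value.

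The lysosomal protease gene Ctss was called higher at ZT20 without the high-UMI members. Ctss encodes cathepsin S, a protease of the endosomes and lysosomes of phagocytes that is secreted by microglia and cleaves fractalkine. It had 312 and 345 UMIs at ZT20 and 214 and 255 UMIs at ZT8, which is 773 and 812 CPM at ZT20 and 536 and 459 CPM at ZT8 without the high-UMI members. Both ZT20 libraries lay above both ZT8 libraries, and the log2 change was 0.69 ± 0.12 (adjusted p = 8.48e-06, edgeR). The call held in 4 of 4 fits that leave out a library (0.58 to 0.79) and without the astrocyte-marker and border macrophage-like members (adjusted p = 0.000122, edgeR), and not with DESeq2 (adjusted p = 0.211). With all members the log2 change was 0.83 ± 0.19 and the adjusted p 0.129 (edgeR). A Ctss UMI was present in 85.9 and 86.2% of members at ZT20 and 75.0 and 65.2% at ZT8. After thinning every member to 1000 UMIs the shares were 58.5 and 52.4% at ZT20 and 43.8 and 34.8% at ZT8, and in astrocyte-marker nuclei thinned alike the share was at most 1.61% in any library. In the other kept nuclei Ctss averaged 6.82 CPM at ZT20 and 5.07 CPM at ZT8, with a log2 change of 0.37. The change in microglia differed from that by 0.26 ± 0.18 (adjusted p = 0.717, edgeR), which did not pass the test. The other nuclei include nuclei that met the marker part of the rule but failed another limit. What part of this Ctss is microglial RNA was not tested, so the comparison cannot show whether other cell types share the change.

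Ctsd, the aspartic protease cathepsin D, had 851 and 822 CPM at ZT20 and 650 and 569 CPM at ZT8 without the high-UMI members (log2 change 0.47 ± 0.12, adjusted p = 0.0077, edgeR). Cst3, the cathepsin inhibitor cystatin C, had 1919 and 1892 CPM at ZT20 and 1426 and 1385 CPM at ZT8 (0.45 ± 0.10, adjusted p = 0.00109, edgeR). Neither gene overlapped between the times. The Cst3 call was kept in 2 of 4 fits with a library left out, and that of Ctsd in 1 of 4. Man2b1, a lysosomal mannosidase outside the list, had 186 and 224 CPM at ZT20 and 122 and 138 CPM at ZT8 (0.67 ± 0.19, adjusted p = 0.0466, edgeR; 0 of 4). With all members Ctsd, Cst3 and Man2b1 had log2 changes of 0.57, 0.51 and 0.82 and did not pass the test (adjusted p of 0.336, 0.378 and 0.194, edgeR). Ctsd and Cst3 were also called higher at ZT20 in the other kept nuclei, with log2 changes of 0.38 and 0.55.

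Of the C1q chains, which form the recognition part of the first complement component, C1qc had 482 and 437 CPM at ZT20 and 344 and 284 CPM at ZT8 without the high-UMI members (log2 change 0.57 ± 0.14, adjusted p = 0.00707, edgeR; kept in 1 of 4 fits). With all members its change was 0.78 ± 0.19 and did not pass the test (adjusted p = 0.174, edgeR). C1qa had 461 and 452 CPM at ZT20 and 349 and 356 CPM at ZT8, which did not overlap and did not pass the test (0.38 ± 0.14, adjusted p = 0.158, edgeR). The other nuclei averaged 5.51 CPM of C1qc at ZT20 and 3.72 CPM at ZT8, a log2 change of 0.52. As for Ctss, the part of microglial RNA in these values was not tested.

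The complement and lysosome list as a whole held 28 genes, of which 26 were tested. When high-UMI members were left out, 5 were called higher (among them Ctss, C1qc, Ctsd and Cst3) and 0 lower, where 0.776% of all genes tested were called higher. 25 of the 26 changes were positive, and the median log2 change was 0.30. With all members 0 of the 26 were called, 13 were higher and 0 lower at an unadjusted p under 0.05 in edgeR, and the median was 0.49. In the other kept nuclei 17 of the 28 were called higher and 0 lower, against 24.7% and 23.8% of all genes there, with a median of 0.29. The summed level in members without high-UMI nuclei was 11640 and 11783 CPM at ZT20 and 9736 and 8735 CPM at ZT8.

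**Figure D4:**
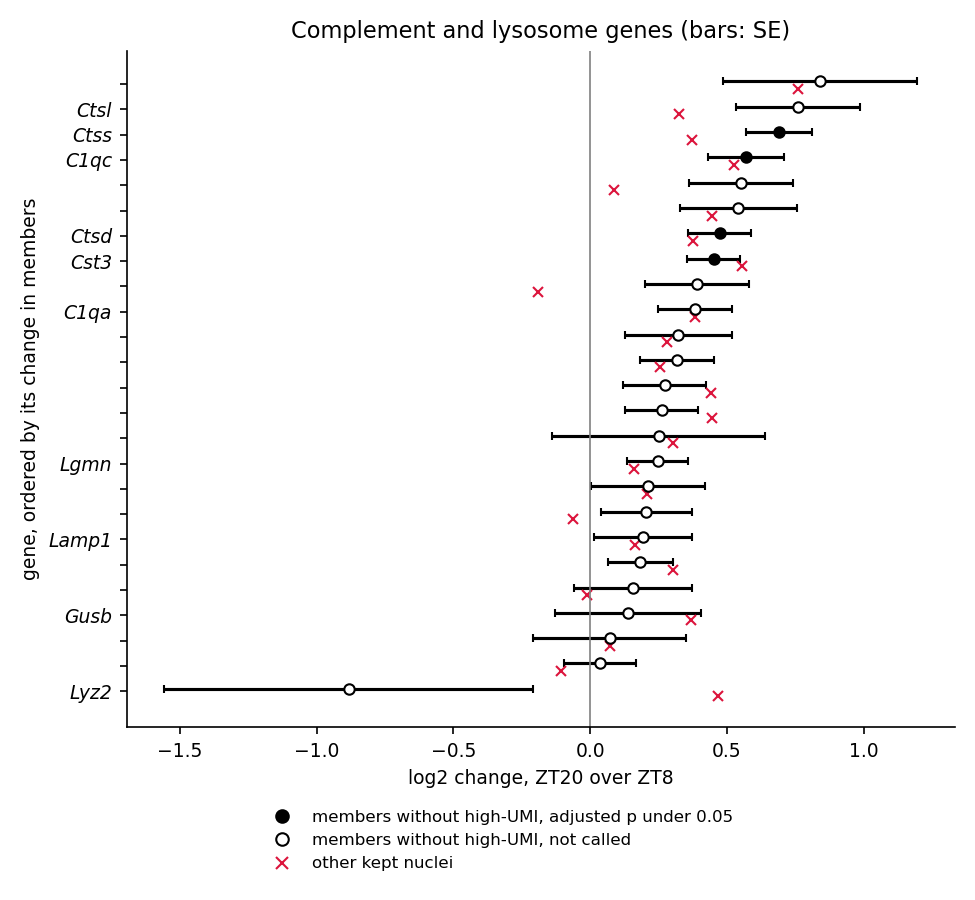
Log2 change (ZT20 over ZT8) of 25 of the 26 complement and lysosome genes tested in members without high-UMI nuclei, with standard errors (circles, filled where called) and in the other kept nuclei (crosses), with a name at the genes the text describes. 24 of the 25 circles lie above 0, and the exception, Lyz2, has the widest error.

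The list of homeostatic genes, known for marking microglia at rest, gave 1 call. Of 20 homeostatic microglia genes, all tested, 1 was called higher without the high-UMI members and 0 with all members, with medians of 0.28 and 0.45. Without the high-UMI members, 0.776% of all genes tested were called higher. The list holds 5 of the 7 markers of the rule. Among the 15 other genes, 8 had a positive and 0 a negative change at an unadjusted p under 0.05 in edgeR with all members, and the medians were 0.33 without the high-UMI members and 0.46 with all members. At that limit 94 of the 715 genes at least 5 times higher in members were higher and 15 lower. Of all 9229 genes tested, 319 were higher and 386 lower. Olfml3, a secreted olfactomedin-like protein gene, had 139 and 142 CPM at ZT20 and 90.6 and 76.2 CPM at ZT8 without the high-UMI members (0.77 ± 0.24, adjusted p = 0.0813, edgeR). Its ZT20 libraries lay above its ZT8 libraries, and the difference did not pass the test. Of 18 microglial transcription factors 17 were tested and 0 were called, with medians of 0.20 with all members and 0.04 without the high-UMI members. Spi1, which encodes PU.1, had 177 and 222 CPM at ZT20 and 143 and 121 CPM at ZT8 with all members, a log2 change of 0.60 ± 0.20 (adjusted p = 0.395, edgeR), and 0.41 ± 0.18 without the high-UMI members (adjusted p = 0.366, edgeR).

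Receptors and their signalling gave few calls. Of 27 CSF1R and immune receptor signalling genes 26 were tested, and of 19 purinergic and motility receptor genes all 19. These lists hold 3 and 2 markers of the rule. In both lists 0 were called, with medians of 0.27 and 0.27 with all members and 0.09 and 0.08 without the high-UMI members. Of the genes outside the lists that were at least 5 times higher in members than elsewhere, Ifngr1, the ligand-binding chain of the interferon gamma receptor, had 207 and 204 CPM at ZT20 and 150 and 104 CPM at ZT8 without the high-UMI members (log2 change 0.73 ± 0.20, adjusted p = 0.0239, edgeR). The times did not overlap, and the call was kept in 1 of 4 fits. Lst1, a leukocyte gene of the major histocompatibility complex region, had 91.7 and 76.9 CPM at ZT20 and 33.7 and 33.9 CPM at ZT8 (1.32 ± 0.34, adjusted p = 0.0137, edgeR; 0 of 4), and Crybb1, a crystallin gene that microglia also express, had 89.0 and 81.7 CPM at ZT20 and 41.4 and 36.0 CPM at ZT8 (1.15 ± 0.32, adjusted p = 0.0366, edgeR; 0 of 4). With all members Ifngr1, Lst1 and Crybb1 had log2 changes of 0.84, 1.32 and 1.35 and did not pass the test (adjusted p of 0.19, 0.15 and 0.15, edgeR). The matricellular protein gene Sparc (542 and 514 CPM at ZT20, 375 and 351 CPM at ZT8), the cadherin gene Cdh23 (223 and 303 CPM at ZT20, 181 and 174 CPM at ZT8) and the transcription factor gene Zeb2 (1846 and 1719 CPM at ZT20, 1478 and 1378 CPM at ZT8) were also called higher, each in 1 of 4 fits with a library left out. Lrmda was the 1 gene of this kind called lower at ZT20 besides Mrc1 and F13a1, with 1391 and 1370 CPM at ZT20 and 2009 and 1721 CPM at ZT8 (-0.42 ± 0.10, adjusted p = 0.00414, edgeR; kept in 1 of 4 fits). With all members its change was -0.24 ± 0.19 (adjusted p = 0.834, edgeR).

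Mrc1 and F13a1 were called lower at ZT20 without the high-UMI members, with log2 changes of -1.61 ± 0.30 (adjusted p = 5.23e-05, edgeR; kept in 3 of 4 fits) and -1.72 ± 0.37 (adjusted p = 0.00123, edgeR; 2 of 4). With all members they had -1.49 ± 0.30 (adjusted p = 0.0766, edgeR) and -1.83 ± 0.39 (adjusted p = 0.106, edgeR). Most UMIs of both genes lay in the 11 border macrophage-like nuclei named above. These nuclei were chosen in part by UMIs of the same genes, so this is a description. Without them, the astrocyte-marker and the high-UMI members, both genes were too low to be tested. Of the 13 border macrophage genes 4 were tested. Stab1, which the members share with these cells, had 76 and 81 UMIs at ZT20 and 62 and 88 UMIs at ZT8, and Dab2 had 20 and 27 UMIs at ZT20 and 47 and 88 UMIs at ZT8 (-1.13 ± 0.28, adjusted p = 0.175, edgeR). The list summed to 256.4 and 334.8 CPM at ZT20 and 377.6 and 488.3 CPM at ZT8, and all 13 genes had at least 1 UMI.

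Activation programmes were sparsely counted. Of 22 genes of disease-associated microglia 13 were tested with all members and 12 without the high-UMI members, where Ctsd was called higher and Igf1 lower. Over all genes tested without the high-UMI members, 0.776% were called higher and 0.554% lower. Igf1, a growth factor gene that neurons and vascular cells also express, had 4 and 4 UMIs at ZT20 and 13 and 29 UMIs at ZT8 (-2.41 ± 0.61 without the high-UMI members, adjusted p = 0.0115, edgeR; kept in 1 of 4 fits), and with all members its change did not pass the test (adjusted p = 0.182, edgeR). Trem2 had 205 and 227 CPM at ZT20 and 167 and 127 CPM at ZT8 with all members (0.56 ± 0.20, adjusted p = 0.431, edgeR), and a log2 change of 0.38 ± 0.17 without the high-UMI members (adjusted p = 0.388, edgeR). Of 32 inflammatory cytokine and NF-kB genes 16 were tested and 0 called, with a median of 0.25 with all members and 0.10 without the high-UMI members. Nlrp3, the inflammasome sensor, had 33 and 30 UMIs at ZT20 and 20 and 24 UMIs at ZT8 (0.87 ± 0.31, adjusted p = 0.431, edgeR), and Nfkbia, which encodes the NF-kB inhibitor, had 7 and 4 UMIs at ZT20 and 13 and 30 UMIs at ZT8 (-1.57 ± 0.48, adjusted p = 0.328, edgeR). The libraries of the times did not overlap for either gene, as for 37.8% of all genes tested with all members. Neither Nlrp3 nor Nfkbia passed the test without the high-UMI members (0.64 and -1.49). The cytokine genes Il10 and Ccl3 had 0 UMIs in any library. Of 25 interferon response genes 8 were tested and 0 called. For most genes of these 3 programmes that were not tested, differences were not detectable at this depth.

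Antigen presentation and Fc receptor genes (15 of 20 tested), integrin and adhesion genes (17 of 25), genes of the TGF-beta pathway that maintains microglia (15 of 21) and lipid handling genes (21 of 25) had 0 calls with all members. Their median log2 changes were 0.07, 0.25, 0.10 and -0.01. Leaving out the high-UMI members gave 0 calls as well, with medians of 0.34, 0.09, -0.03 and 0.01. Tgfb1, the ligand that microglia make themselves, had 129 and 173 CPM at ZT20 and 118 and 77.7 CPM at ZT8 with all members (0.64 ± 0.25, adjusted p = 0.511, edgeR). Itgb5, the integrin chain of microglia that binds vitronectin, had 638 and 714 CPM at ZT20 and 551 and 397 CPM at ZT8 (0.52 ± 0.19, adjusted p = 0.464, edgeR). Neither passed the test without the high-UMI members (0.58 and 0.33, adjusted p of 0.161 and 0.164, edgeR).

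No core clock gene passed the test with all members. Of 24 genes 19 were tested, 0 were called by edgeR and by DESeq2, and 5 were lower and 0 higher at an unadjusted p under 0.05 in edgeR, with a median of -0.44. At the same limit 386 of all 9229 genes tested were lower and 319 higher. Nr1d1 and Dbp, direct targets of the clock activators CLOCK and BMAL1, had 6 and 7 UMIs each at ZT20 and 15 and 43 (Nr1d1) and 17 and 46 (Dbp) at ZT8, log2 changes of -1.74 ± 0.46 and -1.86 ± 0.45 (adjusted p of 0.19 and 0.159, edgeR). Per3, a repressor of the clock, had 18 and 14 UMIs at ZT20 and 29 and 44 UMIs at ZT8 (-0.82 ± 0.31, adjusted p = 0.498, edgeR). Arntl, which encodes BMAL1, had 13 and 15 UMIs at ZT20 and 17 and 26 UMIs at ZT8, a log2 change of -0.25 ± 0.37 (adjusted p = 0.927, edgeR). For Nr1d1, Dbp and Per3 the ZT20 libraries lay below the ZT8 libraries, where 37.8% of all genes tested did not overlap in either direction. With the high-UMI members left out, Nr1d1, Dbp, Per3 and Arntl had log2 changes of -1.31, -1.02, -0.98 and 0.11, and none of the 4 passed the test.

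Without the high-UMI members 16 clock genes were tested, 2 were called lower and 0 higher, and the median was -0.28. Among all genes tested in those members, 0.554% were called lower and 0.776% higher. Nr1d2, the second REV-ERB repressor, had 89.0 and 62.5 CPM at ZT20 and 114 and 171 CPM at ZT8 (-0.93 ± 0.25, adjusted p = 0.0234, edgeR; kept in 2 of 4 fits), and Rora, its competitor at shared DNA sites, 204 and 262 CPM at ZT20 and 303 and 510 CPM at ZT8 (-0.80 ± 0.17, adjusted p = 0.00516, edgeR; 2 of 4). With all members their adjusted p were 0.182 and 0.738 (edgeR). In the other kept nuclei 16 of the 24 clock genes were called lower and 2 higher, against 23.8% and 24.7% of all genes there, with a median of -0.22, and Rora was at 1402 CPM at ZT20 and 1801 CPM at ZT8 there, above its level in members. For Nr1d2 the change in members differed from that in the other nuclei by -0.65 ± 0.25 (adjusted p = 0.363, edgeR), and for Rora by -0.43 ± 0.20 (adjusted p = 0.531, edgeR), and neither difference passed the test.

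The remaining lists gave these counts. Of 21 clock output genes 14 were tested and 0 called (median -0.32 with all members), of 21 glucocorticoid response genes 14 were tested and 0 called (median -0.10), and of 24 immediate early genes 6 were tested and 0 called (median -0.01). Of 19 heat shock genes 15 were tested with all members and 0 called (median 0.30). In members without high-UMI nuclei the chaperone gene Hsp90ab1 was called higher, with 592 and 591 CPM at ZT20 and 440 and 426 CPM at ZT8 (0.46 ± 0.13, adjusted p = 0.0265, edgeR; kept in 1 of 4 fits). Of 22 unfolded protein response genes 19 were tested and 0 called with all members (median 0.27). Hsp90b1, the chaperone of the endoplasmic reticulum, was called without the high-UMI members, with 348 and 397 CPM at ZT20 and 261 and 229 CPM at ZT8 (0.62 ± 0.15, adjusted p = 0.00612, edgeR; 2 of 4). Of 9 cold-inducible RNA-binding genes, all tested, Cirbp alone was called, lower at ZT20 and without the high-UMI members only, with 78.6 and 60.1 CPM at ZT20 and 129 and 129 CPM at ZT8 (-0.89 ± 0.26, adjusted p = 0.0495, edgeR; kept in 0 of 4 fits). These calls without the high-UMI members stand beside 0.776% of all genes tested there called higher and 0.554% called lower. In the other nuclei 16 of the 19 heat shock and 18 of the 22 unfolded protein response genes were called higher, against 24.7% of all genes there.

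Ribosomal protein and mitochondrial transcripts were called higher at ZT20 in the other nuclei, and part of them in members once the high-UMI members were left out. Of all genes tested, 0.776% were called higher in those members and 24.7% in the other nuclei. In those members 13 of 73 ribosomal protein genes were called higher and 0 lower, with a median log2 change of 0.43, and 69 of 73 changes were positive. With all members 0 of the 73 were called and the median was 0.12. All 73 were called higher in the other nuclei, with a median of 0.62. Of 13 mitochondrially encoded genes 12 were tested in members, and 2 were called higher (mt-Co2 and mt-Cytb, both kept in 0 of 4 fits with a library left out; median 0.50, 12 of 12 positive), against 0 with all members (median 0.02) and 13 of 13 in the other nuclei (median 0.79). Ubb, a ubiquitin gene, had 731 and 714 CPM at ZT20 and 438 and 470 CPM at ZT8 in members (0.68 ± 0.12, adjusted p = 2.23e-05, edgeR; kept in 4 of 4 fits), and its log2 change in the other nuclei was also 0.68.

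**Figure D5:**
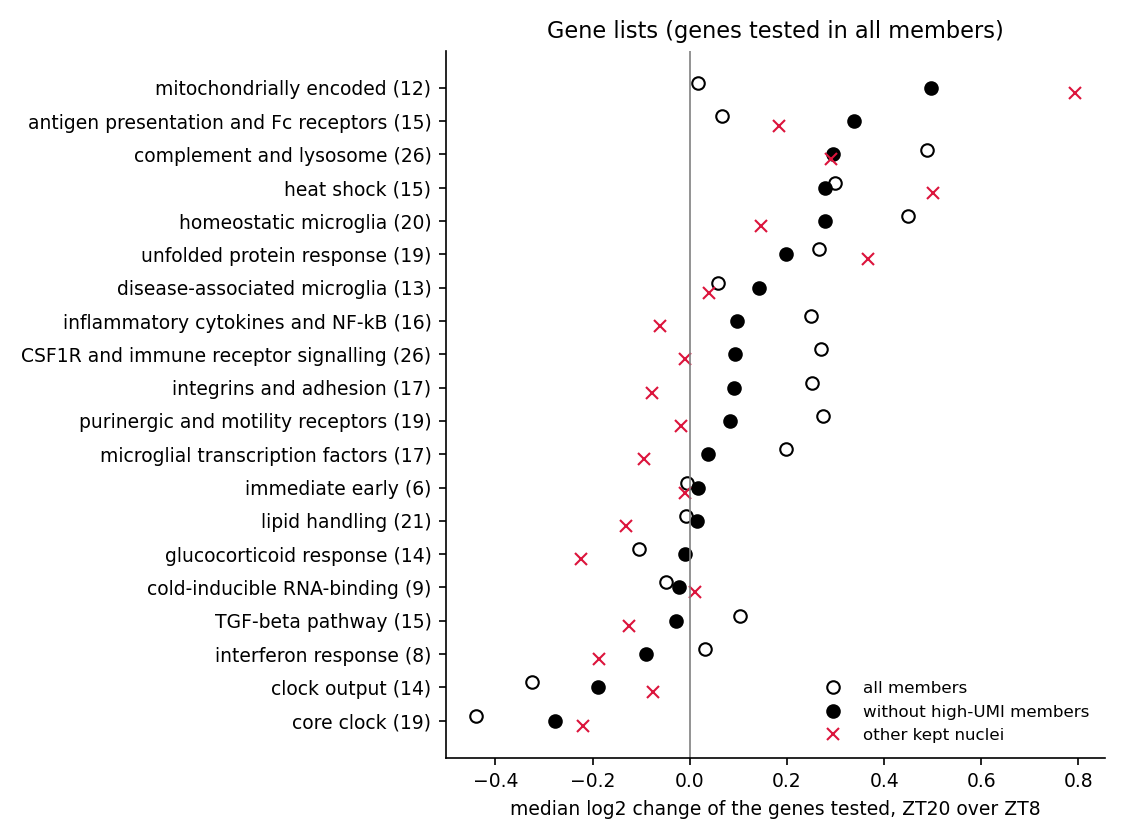
Median log2 change (ZT20 over ZT8) of the genes tested in each of 20 lists, in all members (open circles), in members without high-UMI nuclei (filled circles) and in the other kept nuclei (crosses); the number tested with all members is in brackets. The complement and lysosome list has medians of 0.49, 0.30 and 0.29, and the core clock list medians of -0.44, -0.28 and -0.22.

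The change in members was tested directly against the change in the other kept nuclei. These include nuclei that met the marker part of the rule but failed another limit. For genes found mostly in microglia, both sides may then hold microglial RNA, and the test cannot show that other cell types share a change. With all members 0 of 9229 genes were called (0.0%), and 671 had an unadjusted p under 0.05 in edgeR. Leaving out the high-UMI members, 42 of 8122 were called (0.517%), 17 with a higher (0.209%) and 25 with a lower change (0.308%) in members. Rcsd1, which encodes a partner of the actin-capping protein CapZ, differed by 1.40 ± 0.22 (adjusted p = 0.000326, edgeR), with 230 and 197 CPM in ZT20 members and 158 and 155 CPM in ZT8 members against means of 5.21 CPM at ZT20 and 9.96 CPM at ZT8 in the other nuclei. Zeb2 differed by 0.68 ± 0.13 (adjusted p = 0.00497, edgeR), as did the noncoding RNA Dleu2 (0.84 ± 0.14), the protein kinase C delta gene Prkcd (0.78 ± 0.16) and the zinc finger factor gene Glis3 (1.35 ± 0.30). Rcsd1, Dleu2, Prkcd and Glis3 were called lower at ZT20 in the other nuclei and not called in members. On the other side, Esr1, the estrogen receptor alpha gene, had 26.2 and 40.9 CPM in ZT20 members and 62.1 and 55.0 CPM in ZT8 members, against means of 23.2 CPM at ZT20 and 9.79 CPM at ZT8 in the other nuclei, a difference of -2.02 ± 0.36 (adjusted p = 0.00203, edgeR). The cilium trafficking gene Bbs9, the neuronal genes Csmd1 and Ncdn, the semaphorin receptor gene Nrp1 and the clathrin adaptor gene Ap1s2 had differences between -0.75 (Bbs9) and -1.29 (Ap1s2). Mrc1 (-1.75 ± 0.39, adjusted p = 0.0185, edgeR) and F13a1 (-1.82 ± 0.40, adjusted p = 0.0158, edgeR) were also called, with the UMIs in few nuclei as described.

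Against astrocyte-marker nuclei (2103 nuclei, 848 of 13742 genes called between the times, 6.17%), the change differed for 1 of 9229 genes, Vtn, with all members (0.0108%; 495 at an unadjusted p under 0.05) and for 0 of 8122 without the high-UMI members (526 at an unadjusted p under 0.05, edgeR). No gene of the complement and lysosome list or of the core clock list was called in either difference test.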

How the data were processed

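The authors deposited 1 matrix of raw UMI counts (genes by barcodes) for each library, not normalized. Per the file headers they come from Cell Ranger 7.0.0, and per the submitters' processing notes STAR 2.6 and the build mm10 were used. How barcodes were called is not given in the sources used here.

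Counts of kept barcodes were summed per library over the members, over the other kept nuclei and over astrocyte-marker nuclei (at least 6 UMIs from at least 3 of 7 astrocyte markers, with the same neuronal and oligodendrocyte limits). The library was the replicate. ZT20 was compared with ZT8 by edgeR 4.0.16 in R 4.3.3 (filterByExpr, TMM, robust quasi-likelihood F test, two-sided, Benjamini-Hochberg adjustment over all genes tested, called at an adjusted p under 0.05). Differences in change between classes were tested as the interaction of class and time, with library as a block. Shares and depths were compared by exact permutation tests. DESeq2 1.42.0 was an alternative. Doublets were scored with Scrublet in scanpy 1.11.5 under Python 3.11.15, and the highest scores (0.8% of nuclei per 1000 in a library) were removed in an alternative only.

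Members, gene lists and tests were chosen with earlier results of these data known. Named genes are the 7 markers, up to 12 called genes per direction that do not overlap between times and are at least as high in members as elsewhere (up to 5 that are lower), clock genes, up to 4 genes per list with the smallest p, the 20 genes highest in members by ratio, and up to 6 per direction in the difference test. Some of them are not printed, and gene models with only a number for a name are passed over. Genes named from the comparison without high-UMI members, and that comparison itself, were chosen after their values had been seen. Gene symbols are those of the files, and 32158 of 32285 identifiers matched GENCODE M21. Whether intronic reads were counted is not given in the sources used here, and reads of overlapping genes may be shared.

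The edgeR step was tested on simulated data drawn at the members' depth. Of 8588 unchanged genes it called 1, and it recovered 36.0% of genes changed 2-fold and 95.9% of those changed 4-fold. Changes under 2-fold were thus mostly below what the simulated sums could show. The changed genes were drawn from the better counted genes, and all genes had a common dispersion, so recovery may be lower for sparse genes. The sums without the high-UMI members were not simulated.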

Additional observations from a re-analysis of the deposited data

Results flagged for a closer look

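The change of Vtn, the vitronectin gene known from mural cells, differed between members and astrocyte-marker nuclei (class by time term -5.79 on the log2 scale, adjusted p = 0.037, edgeR). It had 1 and 1 UMIs in ZT20 members and 22 and 119 UMIs in ZT8 members, of which 81 of the 119 lay in a single nucleus that was also border macrophage-like, and high-UMI members held 20 of the 22 and 105 of the 119. Without the high-UMI members it was too low to be tested. The part of mural cells in this value was not tested.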

How the results depend on the processing

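With all members, edgeR called 17 genes. The count was 9 with DESeq2, 7 with at least 4 marker UMIs, 235 with no count filter, 1 with members thinned to 1000 UMIs, 4 without the highest doublet scores and 6 without robust estimation. Of the alternatives chosen after seeing the data, leaving out astrocyte-marker members gave 119, high-UMI members 108, and both with border macrophage-like members 56. Single libraries left out gave 37 to 286. It stayed between 13 and 21 with at least 10 marker UMIs, a 0.5% neuronal limit, at least 1000 genes, at most 1% mitochondrial UMIs, no TMM factors, and without border macrophage barcodes or border macrophage-like members. Without the high-UMI members, DESeq2 called 2 of the 108 and leaving out single libraries gave 31 to 112. For the difference from the other nuclei (0 genes), no count filter gave 109, leaving out high-UMI members 42 and single libraries 6 to 184. For the difference from astrocytes (1 gene), these gave 84, 0 and 0 to 82. Of the genes in the 20 lists (0 called), 15 were called with no count filter, 10 without astrocyte-marker members, 13 without high-UMI members, 5 without these and border macrophage-like members, and 0 to 25 with single libraries left out (25 without the first ZT8 library, 13 without the first ZT20 library). The cause of these shifts was not tested. The difference in median UMIs per nucleus ran from -326.0 to 91.0 with single libraries left out, and turned positive (91.0) without the second ZT8 library. The difference in share ran from -0.705 to -0.626 percentage points with single libraries left out, and from -1.06 to -0.327 under the other settings. Of 62 named genes followed through every setting, 1023 of 1230 values kept their side of the threshold, 125 passed it newly, 82 no longer passed it and none turned round.

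Equal replicate numbers carry no stated shared day or litter, so they were not read as pairs. Libraries with the same number did not deviate together (correlation of deviations -0.0504 with all members). A replicate block called 50 genes with all members (8 higher, 42 lower) and 76 without the high-UMI members. Each library held 135 to 155 member nuclei, so genes with few UMIs per library could often not be tested.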
